A study of Mus musculus with 9 samples.

Results

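Major histocompatibility complex (MHC) class I molecules display peptides from inside the cell to CD8+ T cells and to receptors of natural killer cells. The genes described here are 8 class I heavy chain genes (H2-K1, H2-D1, H2-Q4, H2-Q6, H2-Q7, H2-T22, H2-T23 and H2-M3), B2m, which encodes the light chain beta-2-microglobulin, and Nlrc5, which encodes the class I transactivator. They were chosen by name, by the mouse symbol of each Ensembl identifier, and make up 10 of the 22524 genes counted in each library. All 10 had enough reads to be among the 11560 genes tested. RNA sequencing was done on bone marrow-derived macrophages of C57BL/6 mice, cultured for 7 days, in 3 groups of 3 libraries. The groups were SRF-KO macrophages with lipopolysaccharide (LPS) for 6 h, wild-type macrophages with LPS for 6 h, and untreated wild-type macrophages, and the titles call the wild type Control. SRF is serum response factor, a transcription factor of actin and immediate-early genes, and LPS is a bacterial outer membrane component sensed by Toll-like receptor 4. The labels tell neither how the knockout was made nor whether replicates came from separate animals, so each p-value reflects the spread among these libraries alone, which may be technical. Untreated SRF-KO macrophages were not analysed here, so the response of SRF-KO cells to LPS was not measured.

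In the mouse, H2-K1 and H2-D1 encode the classical class I heavy chains, and the Q, T and M genes encode non-classical or Qa-region chains. The classical chains need beta-2-microglobulin and a peptide, mostly brought into the endoplasmic reticulum by the TAP transporter, to reach the cell surface. NLRC5 does not bind DNA by itself and acts on class I promoters together with RFX, CREB/ATF1 and NF-Y proteins, which sit on the X and Y boxes. These promoters also carry a site for interferon regulatory factors (IRF) and, in the classical genes, a kB site for NF-kB, and LPS engages both routes in macrophages.

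The bases before the annotated start sites are shown first, to set the promoter elements named above beside the expression values. RefSeq promoter windows on GRCm38.p6 were found for 9 of the 10 genes, all except Nlrc5. The 210 bases next to the first annotated exon are printed for a classical gene, a Qa-region gene, a T-region gene, the M3 gene and the light chain, 5′ to 3′ on the gene's strand. Capitals mark a kB match, an IRF core match, an X2-type match or a Y box match.
H2-K1 (chr17:34000348-34000557, minus strand): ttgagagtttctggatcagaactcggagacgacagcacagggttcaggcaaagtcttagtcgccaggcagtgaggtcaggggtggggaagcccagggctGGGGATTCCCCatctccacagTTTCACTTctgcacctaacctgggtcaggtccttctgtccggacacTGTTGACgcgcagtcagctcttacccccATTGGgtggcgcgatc
H2-Q6 (chr17:35424640-35424849, plus strand): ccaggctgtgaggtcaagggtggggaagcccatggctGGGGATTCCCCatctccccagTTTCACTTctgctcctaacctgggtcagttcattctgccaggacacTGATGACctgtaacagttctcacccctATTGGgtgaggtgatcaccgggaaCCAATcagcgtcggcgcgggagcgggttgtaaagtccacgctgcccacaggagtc
H2-T22 (chr17:36042748-36042957, minus strand): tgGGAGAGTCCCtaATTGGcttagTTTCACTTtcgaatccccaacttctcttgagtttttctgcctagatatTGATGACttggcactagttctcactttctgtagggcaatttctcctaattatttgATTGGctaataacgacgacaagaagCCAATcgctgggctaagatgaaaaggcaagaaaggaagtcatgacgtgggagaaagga
H2-M3 (chr17:37270010-37270219, plus strand): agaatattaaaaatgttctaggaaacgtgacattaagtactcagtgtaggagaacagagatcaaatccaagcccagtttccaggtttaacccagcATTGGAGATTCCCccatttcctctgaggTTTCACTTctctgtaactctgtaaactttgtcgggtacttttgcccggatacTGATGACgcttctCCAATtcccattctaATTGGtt
B2m (chr2:122147476-122147685, plus strand): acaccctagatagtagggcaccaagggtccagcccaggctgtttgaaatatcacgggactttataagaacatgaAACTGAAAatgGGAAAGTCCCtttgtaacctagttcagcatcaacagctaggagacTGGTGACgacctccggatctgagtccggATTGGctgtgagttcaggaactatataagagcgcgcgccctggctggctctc

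The IRF core AANNGAAA, searched on both strands in the 250 bases before the start, was present in 9 of the 9 genes and in 21.3% of all 32851 RefSeq windows. Its reverse complement reads TTTCACTT in 7 of the 9, and B2m carries it as AACTGAAA. An X2-type sequence, TGNTGAC, was present in 9 of 9 genes and in 11.7% of windows, and the letters of this motif were set after the promoters had been read. A Y box core, CCAAT, was present in 9 of 9 genes and in 33.8% of windows. In H2-T23 the X2-type match was on the strand opposite to the gene, at positions -19 to -13. It lay nearer the start than the Y box match of H2-T23, at -52 to -48. For H2-T23 and H2-D1 most of the 250 bases lay past the first exon base annotated in GENCODE M21. Bases further upstream of these genes were not searched, so the H2-T23 matches may not describe its promoter. The kB consensus matched in 8 of 9 genes, all but H2-T23, for which the same limit holds, and in 7.25% of windows. In H2-M3 the kB match shares 2 bases with a Y box match, and no other matches of different motifs overlapped. A CArG box, the sequence SRF is known to bind, matched in 0 of 9 genes and in 1.47% of windows. These matches describe letters in a window and not binding.

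Several of these genes have close copies, which bears on every value below. Of all 50-base words in the GENCODE M21 transcripts of a gene, the share found in no other annotated gene was 100% for B2m and Nlrc5, 99.4% for H2-M3, 90.4% for H2-K1 and 87.2% for H2-D1. It was 86.4% for H2-T23, 78.2% for H2-Q4, 73.6% for H2-Q7, 68.0% for H2-Q6 and 65.5% for H2-T22. With 100-base words the lowest share was 88.0%, for H2-Q7. H2-T22 shared 31.2% of its 50-base words with H2-T10, which is not analysed here, and H2-Q6 shared 13.9% with H2-Q7 and 12.3% with H2-Q4. H2-Q7 shared 14% with H2-Q10, H2-D1 5.87% with H2-Q1 and H2-K1 5.18% with H2-Q10. Sharing thus also crosses the families summed below. The sources used here give neither the read length nor the handling of reads with several matches, so reads of these copies may have been lost or split. Exons of H2-Q4 and H2-T22 also overlap antisense genes, Gm11131 over 19.1% and A930015D03Rik over 29.4% of their exon length. The libraries were stranded, but the strand setting of the counting is not given. Whether reads of these pairs were told apart is therefore not known.

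**Figure D1:**
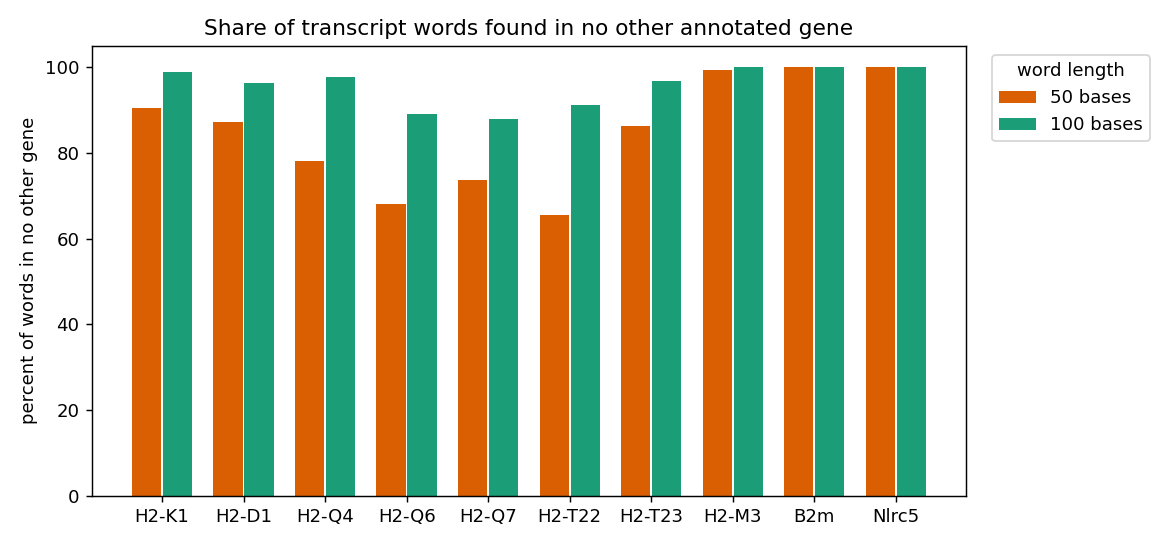
Percent of the 50-base (orange) and 100-base (green) words of each gene's transcripts that occur in no other gene of the GENCODE M21 annotation. The Qa-region genes and H2-T22 have the lowest 50-base bars, down to 65.5% for H2-T22, whereas B2m and Nlrc5 reach 100%.

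Total counts ranged from 15321839 to 24912173 per library, and levels are given as CPM, the read count relative to a library total that was adjusted by TMM, the trimmed mean of M-values. The targeted gene Srf was at 1.53, 0.929 and 0.680 CPM in LPS-treated SRF-KO, against 59.5, 55.2 and 58.2 CPM in LPS-treated wild type. The macrophage markers chosen for this check (8 genes) summed to between 24197 and 24422 CPM in LPS-treated SRF-KO, between 22928 and 23416 CPM in LPS-treated wild type and between 16688 and 17212 CPM in untreated wild type. Lyz2 was the largest part of the sum, at 12296 CPM on average in LPS-treated SRF-KO and 8925 CPM in LPS-treated wild type. In LPS-treated SRF-KO against LPS-treated wild type 5 of the 8 fell and 3 rose, and Fcgr1, an IgG receptor, was at 84.2 against 1853 CPM. Markers of T and NK cells (6 genes), B cells (4 genes) and dendritic cells (6 genes) summed to at most 1.37 CPM in any library, and none had enough reads to be tested. Cd3g, Nkg7 and Ncr1 were at 0 counts in all 9 libraries. Neutrophil markers (6 genes) summed to at most 17.3 CPM in LPS-treated SRF-KO, mostly S100a8, against 5.04 to 6.22 CPM in LPS-treated wild type and 1.60 to 2.20 CPM untreated, with Elane at 0 counts in every library and Ly6g and Mpo at 0 in all LPS-treated ones. Stromal and endothelial markers (6 genes) summed to between 28.4 and 30.7 CPM in LPS-treated SRF-KO, against 20.5 to 26.7 CPM in LPS-treated wild type and 1.87 to 2.17 CPM untreated, with Col1a1 at 0 counts in every library. Pdgfrb made up most of the sum in the LPS-treated groups, at 27.4 CPM in SRF-KO against 14.8 CPM in wild type. Pecam1 (0.809 against 2.83 CPM) and Cdh5 (1.16 against 5.43 CPM) were lower in LPS-treated SRF-KO than in LPS-treated wild type. The part of these differences in the results below was not tested. Each of the Y-linked genes Uty, Ddx3y, Kdm5d and Eif2s3y had 0 to 2 counts per SRF-KO library, against 248 to 795 per library in LPS-treated wild type. Loss of SRF and the absence of Y-linked reads therefore cannot be told apart in any SRF-KO comparison below. In bulk RNA, fewer cells that express a gene and less RNA per cell cannot be told apart either.

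All 10 genes were lower in SRF-KO macrophages with LPS than in wild-type macrophages with LPS, by 2.70-fold (H2-D1) to 10.8-fold (H2-Q6). All 10 were higher in LPS-treated wild type than in untreated wild type, by 1.54-fold (B2m) to 6.61-fold (H2-Q6). In LPS-treated SRF-KO 8 of the 10 were also lower than in untreated wild type, Nlrc5 was higher, and H2-Q4 did not pass the test. Calls come from the quasi-likelihood test of edgeR at a Benjamini-Hochberg adjusted p of 0.05 over all 11560 genes. Of all genes tested, 77.0% passed between LPS-treated SRF-KO and LPS-treated wild type, 37.9% lower and 39.1% higher, and 11.2% were lower by at least 2-fold, which all 10 genes were. With LPS in wild type 81.7% of all genes passed, 40.8% higher and 40.8% lower, and 15.6% were higher by at least 2-fold, which held for 5 of the 10 genes. For LPS-treated SRF-KO against untreated cells 79.5% passed, 40.1% lower and 39.4% higher. For 10 of 10 genes the library values of the groups compared were fully separate in every comparison, against 78.0%, 82.1% and 79.5% of all genes. The median log2 fold change of the 10 genes was -2.11, 1.58 and -0.61 in the same order, and that of all genes tested 0.01, -0.02 and -0.01. The first 2 comparisons share the wild-type libraries with LPS, so they are not independent of each other.

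**Figure D2:**
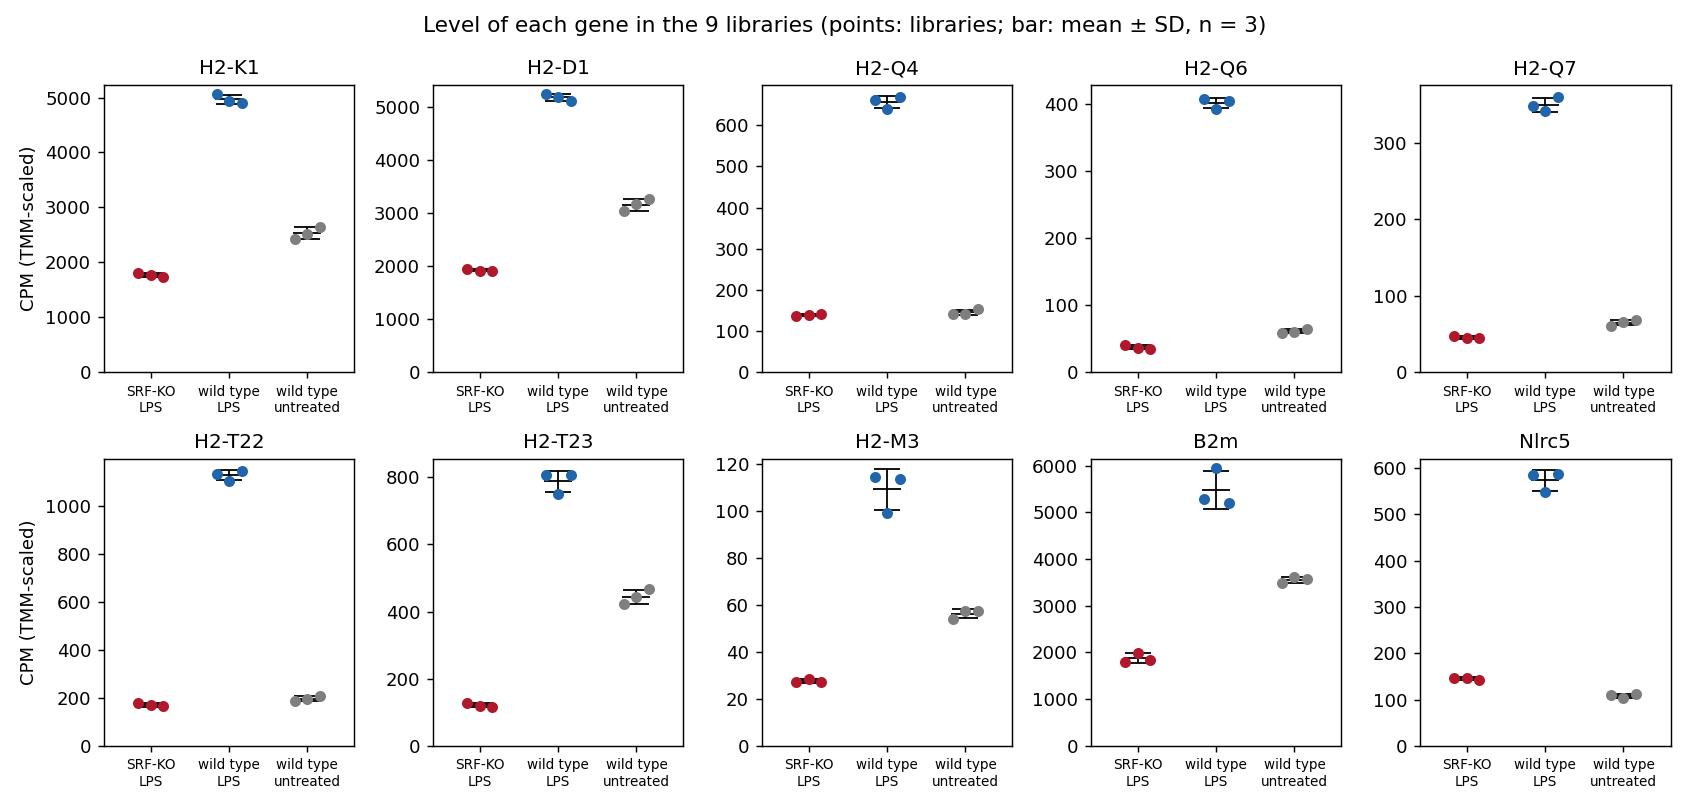
Level of each gene in CPM (linear axis from 0), with 1 point per library and the mean ± SD of 3 libraries per group, for LPS-treated SRF-KO, LPS-treated wild type and untreated wild type. Wild type with LPS is the highest group in all 10 panels, and LPS-treated SRF-KO is the lowest in all panels except that of Nlrc5, where it lies between the other 2 groups at 146 CPM on average.

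The choice of scaling moved the fold changes of these 10 genes along with those of all genes, but changed few of their calls. When library totals replaced TMM, the median log2 fold change of all genes moved to 0.37 in LPS-treated SRF-KO against LPS-treated wild type and to -0.57 with LPS in wild type. Of all genes, 61.1% were then higher and 21.1% lower in LPS-treated SRF-KO against LPS-treated wild type, and 21% higher and 67.8% lower with LPS in wild type. All 10 genes stayed lower in LPS-treated SRF-KO than in LPS-treated wild type, between -3.08 (H2-Q6) and -1.07 (H2-D1) on the log2 scale. With LPS in wild type 9 of the 10 stayed higher, by less than with TMM. H2-K1 was at 0.43 (0.97 with TMM), H2-D1 at 0.16 (0.71 with TMM) and B2m at 0.07 (SE 0.0437, adjusted p = 0.107).

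**Figure D3:**
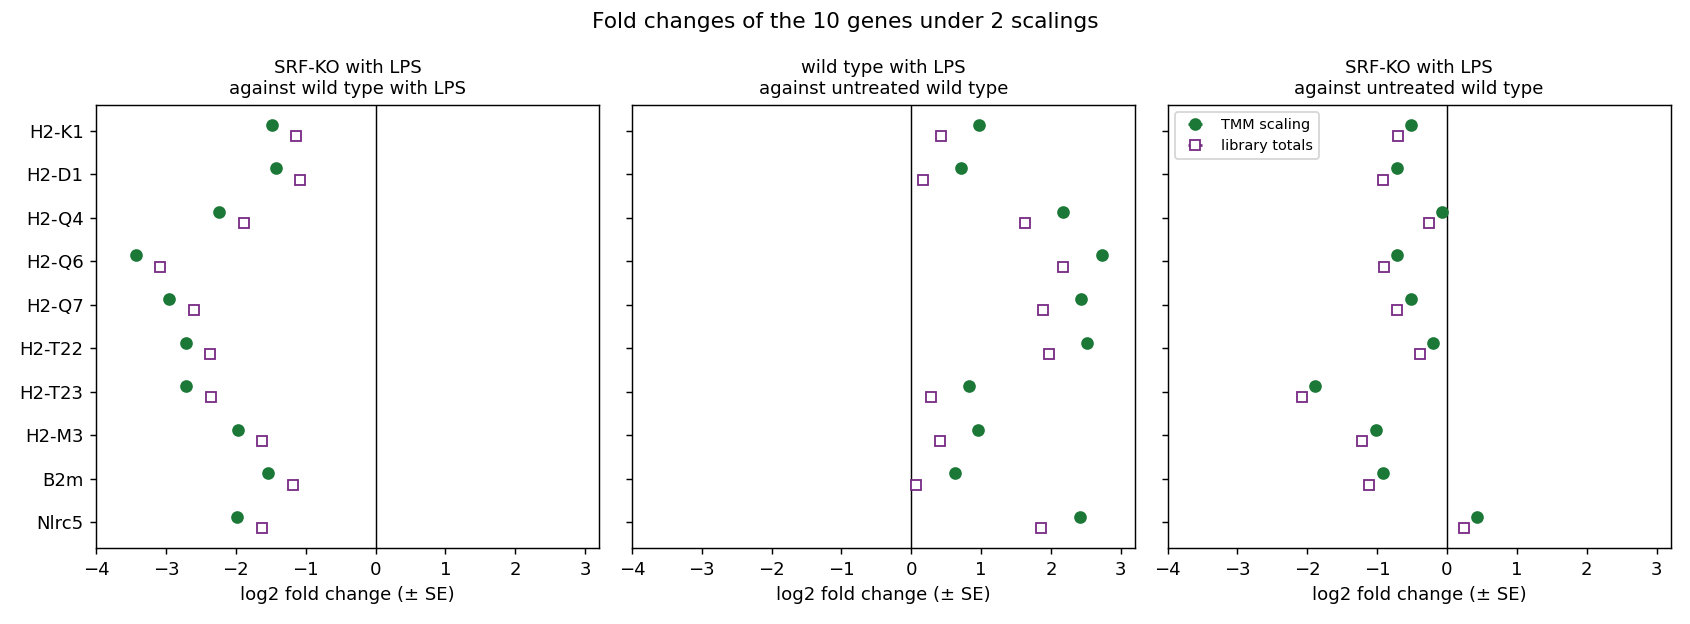
Log2 fold change ± SE of each gene in the 3 comparisons, with TMM scaling (green circles) and with library totals (purple squares). Every point of the genotype comparison lies left of 0, down to -3.44 for H2-Q6, and the largest rises with LPS in wild type belong to H2-Q6, H2-T22, H2-Q7, Nlrc5 and H2-Q4.

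Nlrc5, the transactivator (ENSMUSG00000074151, chromosome 8, 94434356 to 94527272, plus strand, GRCm38), had 147, 147 and 143 CPM in LPS-treated SRF-KO, against 586, 548 and 586 CPM in LPS-treated wild type and 109, 103 and 111 CPM in untreated wild type. The 3 groups were fully separate, and Nlrc5 was the 1 gene of the 10 that lay above the untreated level in SRF-KO. It was 3.94-fold lower in LPS-treated SRF-KO than in LPS-treated wild type (log2 fold change -1.98, SE 0.0400, adjusted p = 3.99e-33). It was 5.32-fold higher with LPS in wild type (log2 fold change 2.41, SE 0.0412, adjusted p = 8.58e-36) and 1.35-fold higher in LPS-treated SRF-KO than in untreated wild type (log2 fold change 0.43, SE 0.0418, adjusted p = 6.27e-12).

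The classical heavy chains changed least among the 8 in the genotype comparison. H2-K1 (ENSMUSG00000061232, chromosome 17, 33996017 to 34000347, minus strand) had 1802, 1776 and 1739 CPM in LPS-treated SRF-KO, against 5065, 4944 and 4907 CPM in LPS-treated wild type and 2432, 2512 and 2645 CPM in untreated wild type. H2-D1 (ENSMUSG00000073411, chromosome 17, 35262730 to 35267499, plus strand) had 1946, 1908 and 1914 CPM in LPS-treated SRF-KO, against 5249, 5189 and 5113 CPM in LPS-treated wild type and 3044, 3166 and 3272 CPM in untreated wild type. Both genes thus had their lowest libraries in SRF-KO and their highest in LPS-treated wild type, with no overlap. H2-K1 was 2.81-fold lower in LPS-treated SRF-KO than in LPS-treated wild type (log2 fold change -1.49, SE 0.0400) and 1.97-fold higher with LPS in wild type (log2 fold change 0.97, SE 0.0394). H2-D1 was 2.70-fold lower (log2 fold change -1.43, SE 0.0392) and 1.64-fold higher (log2 fold change 0.71, SE 0.0386) in the same comparisons. Against untreated wild type, LPS-treated SRF-KO was lower by 1.43-fold for H2-K1 and 1.64-fold for H2-D1 (adjusted p = 1.12e-14 and adjusted p = 2.77e-19).

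B2m, the light chain shared by all class I molecules (ENSMUSG00000060802, chromosome 2, 122147686 to 122153083, plus strand), had 1802, 1993 and 1844 CPM in LPS-treated SRF-KO, against 5279, 5943 and 5197 CPM in LPS-treated wild type and 3482, 3608 and 3565 CPM in untreated wild type. Replicate 2 was the highest library within each of these groups. B2m was 2.91-fold lower in LPS-treated SRF-KO than in LPS-treated wild type (log2 fold change -1.54, SE 0.0460, adjusted p = 1.35e-27) and 1.89-fold lower than in untreated wild type (log2 fold change -0.92, SE 0.0454, adjusted p = 1.67e-20). Its rise with LPS in wild type was the smallest of the 10 (log2 fold change 0.62, SE 0.0451, adjusted p = 1.77e-15), and it is the 1 rise that was lost with library totals.

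Of the Qa-region genes, H2-Q6 had the steepest change of all 10 genes in the comparison of the LPS-treated groups and with LPS in wild type. H2-Q6 (ENSMUSG00000073409, chromosome 17, 35424850 to 35430055, plus strand) had 40.5, 36.3 and 34.2 CPM in LPS-treated SRF-KO, against 408, 393 and 405 CPM in LPS-treated wild type and 58.0, 60.3 and 64.1 CPM in untreated wild type. H2-Q7 (ENSMUSG00000060550, chromosome 17, 35439155 to 35443773, plus strand), which encodes a Qa-2 chain, had 47.3, 44.4 and 44.1 CPM in LPS-treated SRF-KO, against 349, 342 and 361 CPM in LPS-treated wild type and 60.7, 66.2 and 67.7 CPM in untreated wild type. H2-Q4 (ENSMUSG00000035929, chromosome 17, 35379617 to 35385290, plus strand) had 137, 139 and 141 CPM in LPS-treated SRF-KO, against 663, 640.3 and 668 CPM in LPS-treated wild type and 142, 142 and 152 CPM in untreated wild type. In all 3 genes the SRF-KO libraries lay under the untreated ones, for H2-Q4 without passing the test, and far under LPS-treated wild type. Between the LPS-treated groups H2-Q6 was 10.8-fold lower in SRF-KO (log2 fold change -3.44, SE 0.0490), H2-Q7 7.75-fold lower (log2 fold change -2.95, SE 0.0457) and H2-Q4 4.73-fold lower (log2 fold change -2.24, SE 0.0395). With LPS in wild type they were 6.61-fold, 5.41-fold and 4.52-fold higher. Against untreated wild type, H2-Q6 and H2-Q7 were lower in LPS-treated SRF-KO (log2 fold changes -0.71 and -0.52). H2-Q4 was at -0.07 (SE 0.0403, adjusted p = 0.134), or -0.26 with library totals (adjusted p = 2.94e-07).

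Because reads of the Qa-region copies can be split among them, their counts were also summed. The 6 counted H2-Q genes as 1 feature were at -2.67 (SE 0.0406) on the log2 scale in LPS-treated SRF-KO against LPS-treated wild type, at 2.38 (SE 0.0401) with LPS in wild type and at -0.29 (SE 0.0399) in LPS-treated SRF-KO against untreated wild type. These sums do not depend on how reads were divided within the family, and each passed the test (adjusted p = 2.96e-37, adjusted p = 3.79e-36 and adjusted p = 3.11e-08). Reads dropped because they match several copies, counted or not, would still be missing from these sums. H2-K1 and H2-D1 summed were at -1.46 (SE 0.0404), 0.84 (SE 0.0399) and -0.62 (SE 0.0398) in the same comparisons. Reads that H2-K1 or H2-D1 share with H2-Q genes can still be split between these sums.

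The T-region genes separated from each other in the untreated cells. H2-T22 (ENSMUSG00000056116, chromosome 17, 36037128 to 36042747, minus strand), whose product is a ligand of some gamma-delta T cell receptors, had 180, 168 and 165 CPM in LPS-treated SRF-KO, against 1132, 1103 and 1143 CPM in LPS-treated wild type and 187, 196 and 206 CPM in untreated wild type. H2-T23 (ENSMUSG00000067212, chromosome 17, 36029773 to 36032855, minus strand), which encodes Qa-1, the ligand of the inhibitory natural killer receptor CD94/NKG2A, had 127, 118 and 116 CPM in LPS-treated SRF-KO, against 808, 752 and 806 CPM in LPS-treated wild type and 424, 443 and 466 CPM in untreated wild type. Between the LPS-treated groups the 2 genes had nearly the same difference, with H2-T22 at -2.72 (SE 0.0425) and H2-T23 at -2.71 (SE 0.0449) on the log2 scale. With LPS in wild type H2-T22 was 5.74-fold and H2-T23 1.77-fold higher. In LPS-treated SRF-KO, H2-T23 was 3.69-fold lower than in untreated wild type (log2 fold change -1.88, SE 0.0442, adjusted p = 3.64e-31), the steepest difference of the 10 genes in that comparison, and H2-T22 was 1.15-fold lower (log2 fold change -0.20, SE 0.0423, adjusted p = 6.26e-05). The 4 counted H2-T genes summed were at -2.33 (SE 0.0423), 1.56 (SE 0.0411) and -0.77 (SE 0.0411) for LPS-treated SRF-KO against LPS-treated wild type, LPS in wild type, and LPS-treated SRF-KO against untreated wild type.

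H2-M3 (ENSMUSG00000016206, chromosome 17, 37270220 to 37274484, plus strand), which presents N-formylated peptides of bacteria and mitochondria, was the lowest of the 10 genes by CPM. It had 27.3, 28.6 and 27.3 CPM in LPS-treated SRF-KO, against 114, 99.3 and 114 CPM in LPS-treated wild type and 54.0, 57.6 and 57.3 CPM in untreated wild type. The groups did not overlap, and the SRF-KO libraries lay near the middle between 0 and the untreated level. H2-M3 was 3.93-fold lower in LPS-treated SRF-KO than in LPS-treated wild type (log2 fold change -1.97, SE 0.0566), 1.94-fold higher with LPS in wild type (log2 fold change 0.95, SE 0.0523) and 2.03-fold lower in LPS-treated SRF-KO than in untreated wild type (log2 fold change -1.02, SE 0.0583, adjusted p = 1.71e-18).

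The make-up of the heavy-chain reads differed between the groups, a measure that does not depend on library scaling. H2-K1 and H2-D1 together held 87.0%, 87.3% and 87.4% of the counts on the 8 heavy chains in LPS-treated SRF-KO, against 74.8%, 75.3% and 74.1% in LPS-treated wild type and 85.5%, 85.5% and 85.4% in untreated wild type. The classical share was thus lowest in LPS-treated wild type and highest in LPS-treated SRF-KO, with no overlap. H2-Q4, H2-Q6 and H2-Q7 together held 5.22% ± 0.0196 in LPS-treated SRF-KO, 10.4% ± 0.204 in LPS-treated wild type and 4.07% ± 0.0303 in untreated wild type (SD, n = 3 each). H2-T22 held 4.04% ± 0.118, 8.29% ± 0.147 and 2.95% ± 0.0298 in the same groups, whereas H2-T23 held 2.84% ± 0.0990, 5.80% ± 0.195 and 6.67% ± 0.0503. An exact two-sided permutation test gave p = 0.1 for each of these differences between LPS-treated SRF-KO and LPS-treated wild type and between LPS-treated wild type and untreated wild type, the smallest p that 3 against 3 libraries can give, so this test cannot pass 0.05.

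**Figure D4:**
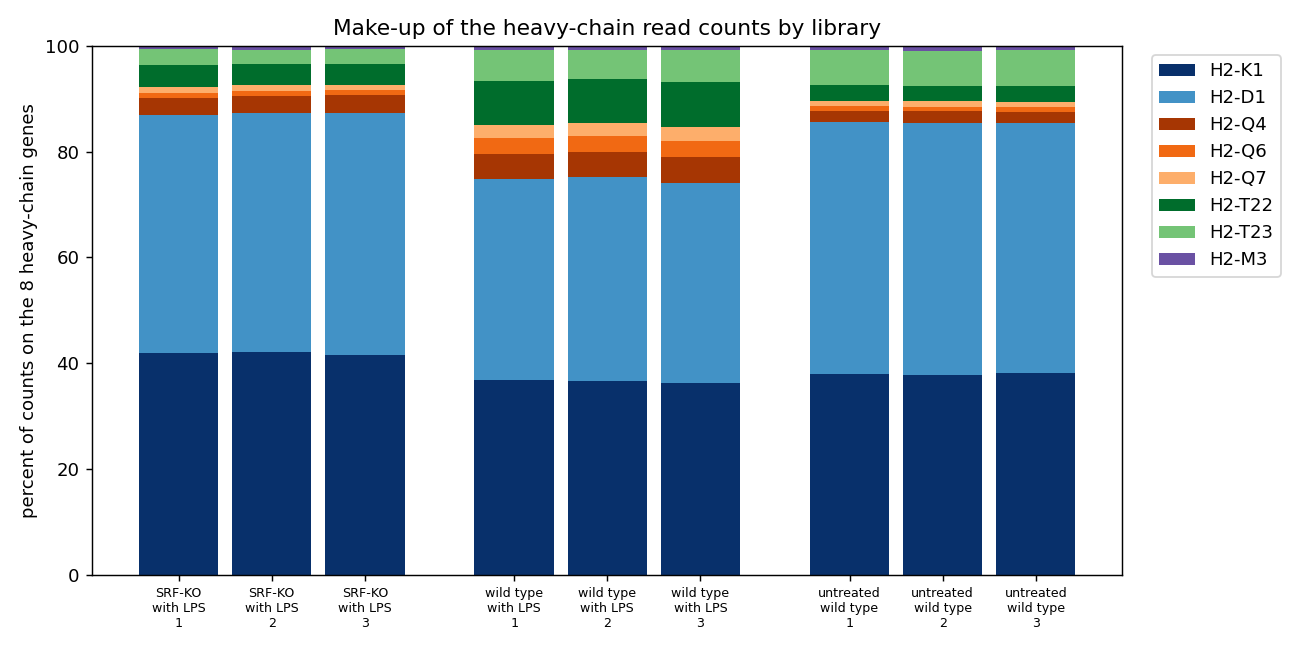
Percent of the read counts on the 8 heavy-chain genes that each gene holds, 1 stacked bar per library, for LPS-treated SRF-KO, LPS-treated wild type and untreated wild type (replicates 1 to 3 in each). The classical genes (blue, bottom) hold 87.0% to 87.4% in LPS-treated SRF-KO, 74.1% to 75.3% in LPS-treated wild type and 85.4% to 85.5% in untreated wild type.

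Set against B2m within each library, the heavy chains moved unequally. The ratio of H2-K1 counts to B2m counts was 1.00, 0.891 and 0.943 in LPS-treated SRF-KO, against 0.959, 0.832 and 0.944 in LPS-treated wild type and 0.698, 0.696 and 0.742 in untreated wild type. The LPS-treated groups overlapped for this ratio, with a log2 difference of 0.05 (exact two-sided permutation test p = 0.7), and both lay above the untreated libraries. The ratio of all 8 heavy chains summed to B2m was 2.26 ± 0.137 in LPS-treated SRF-KO, 2.49 ± 0.197 in LPS-treated wild type and 1.87 ± 0.0604 in untreated wild type (SD, n = 3 each), and the LPS-treated groups overlapped again (exact permutation p = 0.3). H2-Q6 differed most, with ratios of 0.0225, 0.0182 and 0.0186 in LPS-treated SRF-KO, 0.0773, 0.0661 and 0.0778 in LPS-treated wild type and 0.0167, 0.0167 and 0.0180 in untreated wild type. The log2 difference of the H2-Q6 ratio was -1.90 in LPS-treated SRF-KO against LPS-treated wild type and 2.10 with LPS in wild type, without overlap in either (exact permutation p = 0.1, the smallest possible). The ratio of H2-T23 to B2m in LPS-treated SRF-KO lay under that of both other groups without overlap (exact permutation p = 0.1, the smallest possible), at 0.0643 ± 0.00575 in LPS-treated SRF-KO, 0.145 ± 0.0159 in LPS-treated wild type and 0.125 ± 0.00490 in untreated wild type (SD, n = 3 each). After Benjamini-Hochberg adjustment over the 33 ratios and comparisons computed, the smallest adjusted p was 0.122. Nlrc5 to B2m was 0.0775 ± 0.00379 in LPS-treated SRF-KO, 0.105 ± 0.0115 in LPS-treated wild type and 0.0304 ± 0.00149 in untreated wild type (SD, n = 3 each).

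Levels of different genes were compared per kilobase of annotated exon (CPM per kb), which depends on the annotated exon length (4.265 kb for H2-Q7) and on reads lost to copies. In all 3 groups B2m stood first, with 2186 ± 117 in LPS-treated SRF-KO, 6364 ± 475 in LPS-treated wild type and 4130 ± 74.4 CPM per kb in untreated wild type. H2-D1 and H2-K1 followed, at 746 ± 7.88 and 603 ± 10.9 in LPS-treated SRF-KO, 2010.0 ± 26.5 and 1692 ± 28.1 in LPS-treated wild type, and 1225 ± 44.3 and 861 ± 36.7 CPM per kb in untreated wild type, without overlap between the 2 genes. Next came H2-Q4, H2-T22 and H2-T23 in LPS-treated SRF-KO (53.5, 50.1 and 41.7 CPM per kb), H2-T22, H2-T23 and H2-Q4 in LPS-treated wild type (330, 273 and 253 CPM per kb), and H2-T23, H2-T22 and H2-Q4 in untreated wild type (154, 57.5 and 56.0 CPM per kb). H2-T22 and H2-Q4 overlapped in untreated wild type, H2-M3 and Nlrc5 overlapped in LPS-treated wild type, and in LPS-treated SRF-KO H2-Q6 overlapped both H2-M3 and Nlrc5, which were separate from each other. H2-T23 thus followed H2-K1 directly in untreated cells but came after H2-Q4 and H2-T22 in SRF-KO cells with LPS.

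Of the other counted H2 class I genes, H2-M2 went the opposite way between the genotypes. H2-M2 had 80.9 ± 5.90 CPM in LPS-treated SRF-KO, 40.1 ± 2.08 CPM in LPS-treated wild type and 3.74 ± 0.603 CPM in untreated wild type (SD, n = 3 each). Its log2 fold change was 1.01 in LPS-treated SRF-KO against LPS-treated wild type (SE 0.0598, adjusted p = 5.33e-18), or 1.37 with library totals, and 3.42 with LPS in wild type (SE 0.0967). H2-T24 had 136 ± 7.66 CPM in LPS-treated SRF-KO, 232 ± 5.41 CPM in LPS-treated wild type and 88.6 ± 4.74 CPM in untreated wild type, and a log2 fold change of -0.77 (SE 0.0431) between the LPS-treated groups. Unlike most of the 10 genes, H2-T24 was higher in LPS-treated SRF-KO than in untreated wild type (log2 fold change 0.62, SE 0.0450, adjusted p = 2.51e-15, or 0.43 with library totals). The remaining 6 counted genes of this list were too low to test, and H2-M5 and H2-M9 had 0 counts in all libraries. The other 6 of the 14 listed genes are not analysed here.

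Most peptide supply and loading genes were lower in SRF-KO macrophages with LPS, and a group of chaperones was higher. In LPS-treated SRF-KO against LPS-treated wild type 10 of 13 fell and 3 rose, and with LPS in wild type 10 rose, 2 fell and 1 did not pass (medians -1.47 and 1.61 on the log2 scale), or 9 rose and 4 fell with library totals. Of all genes tested, 37.9% were lower in the first of these comparisons and 40.8% higher in the second. Tap1, a subunit of the peptide transporter, had 196 ± 8.30 CPM in LPS-treated SRF-KO, 959 ± 18.9 CPM in LPS-treated wild type and 207 ± 11.6 CPM in untreated wild type. Psmb9 and Psmb10, subunits of the immunoproteasome, were lower between the LPS-treated groups too, with log2 fold changes of -2.27 (SE 0.0497) for Psmb9 and -2.52 (SE 0.0543) for Psmb10. The 3 that rose, chosen after their values were seen, were the general endoplasmic reticulum chaperones Calr, Canx and Pdia3, at 0.38, 0.58 and 0.46. In LPS-treated SRF-KO against untreated wild type 6 of the 13 were higher, 5 lower and 2 did not pass, or 5 higher and 7 lower with library totals.

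Genes of the interferon and NF-kB inputs to class I promoters mostly moved in the same direction as the 10 genes in the comparison of the LPS-treated groups and with LPS in wild type. Of 13 tested, 12 were lower and 1 higher in LPS-treated SRF-KO than in LPS-treated wild type, and 12 were higher and 1 lower with LPS in wild type (medians -0.97 and 1.59). Of all genes tested, 37.9% were lower in the first of these comparisons and 40.8% higher in the second. With library totals 11 of the 13 were lower and 1 higher, and 11 higher and 1 lower. In LPS-treated SRF-KO against untreated wild type 5 were higher, 5 lower and 3 did not pass (median 0.09). With library totals 5 were higher and 7 lower in that comparison. Irf7, an interferon regulatory factor, had 332 ± 17.6 CPM in LPS-treated SRF-KO, 2980 ± 118 CPM in LPS-treated wild type and 991 ± 43.8 CPM in untreated wild type. Stat2, a transcription factor of type I interferon signalling, had 282 ± 9.38 CPM in LPS-treated SRF-KO, 1228 ± 5.48 CPM in LPS-treated wild type and 327 ± 19.0 CPM in untreated wild type (log2 fold change -2.12, SE 0.0414, between the LPS-treated groups). The 1 gene that was higher, named after its value was seen, was Nfkb1, with 667 ± 9.87 CPM in LPS-treated SRF-KO and 487 ± 8.71 CPM in LPS-treated wild type (log2 fold change 0.45, SE 0.0364).

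The calls of the DNA-binding partners of NLRC5 depended on the scaling. Of 8 tested, 3 were higher, 2 lower and 3 did not pass in LPS-treated SRF-KO against LPS-treated wild type, and with library totals 6 were higher and 1 lower. With LPS in wild type 5 were higher, 1 lower and 2 did not pass, and with library totals 1 was higher and 5 lower. Of all genes tested, 39.1% were higher and 37.9% lower between the LPS-treated groups, and 40.8% higher and 40.8% lower with LPS. In LPS-treated SRF-KO against untreated wild type 5 of the 8 were higher, 1 lower and 2 did not pass, or 3 higher and 3 lower with library totals. Rfx5 had 20.4 ± 1.11 CPM in LPS-treated SRF-KO, 33.3 ± 1.72 CPM in LPS-treated wild type and 13.6 ± 1.00 CPM in untreated wild type (log2 fold change -0.70, SE 0.0704, between the LPS-treated groups, and 1.29, SE 0.0758, with LPS in wild type). Between the LPS-treated groups Nfya was at -0.30 (SE 0.0405) on the log2 scale, or 0.05 with library totals (adjusted p = 0.231), and Nfyb at 0.35 (SE 0.0860).

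**Figure D5:**
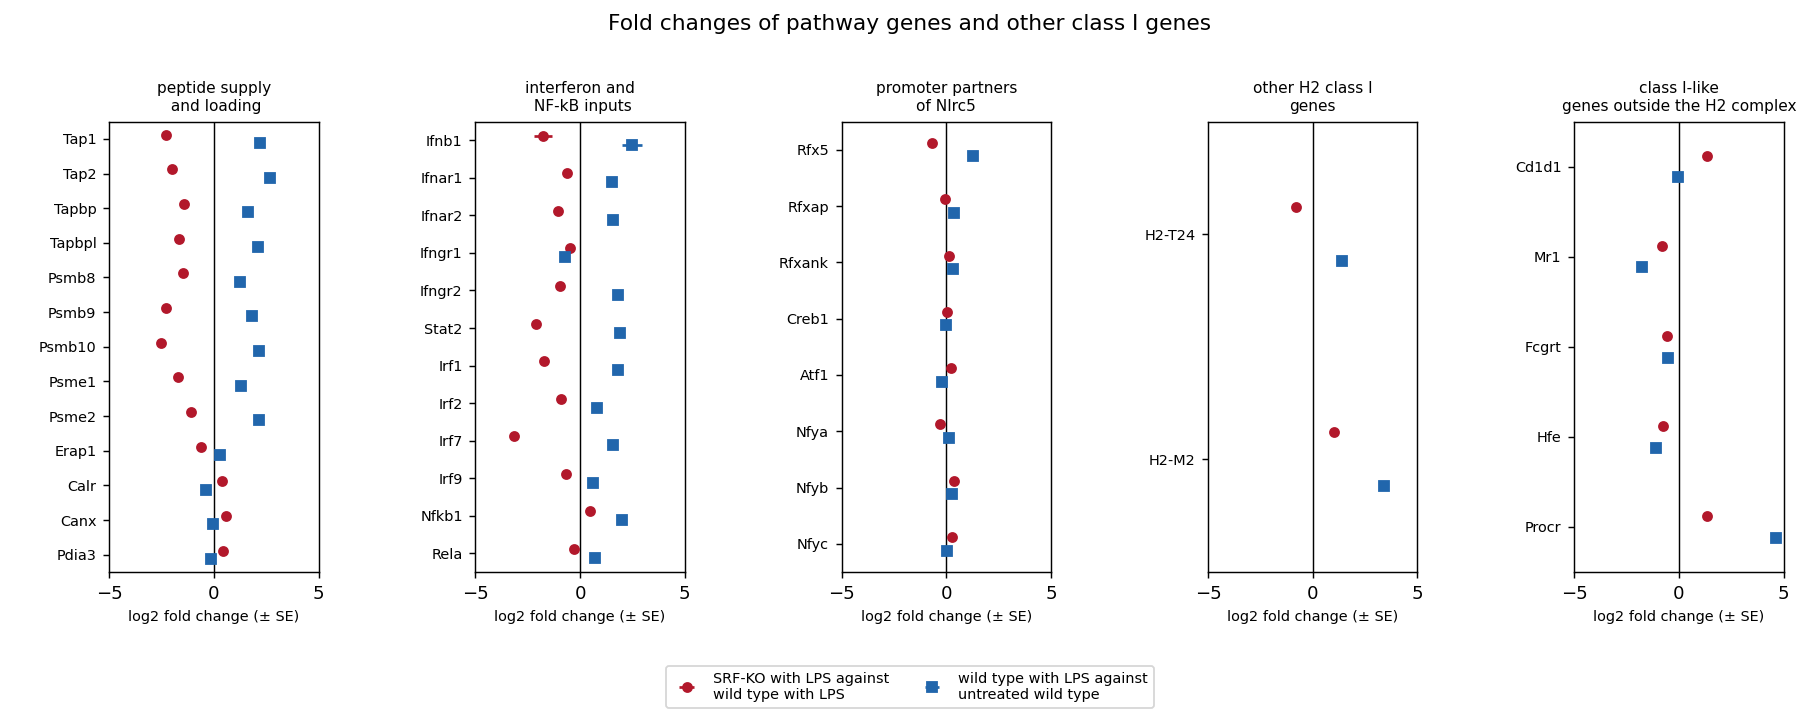
Log2 fold change ± SE of the tested genes of 5 lists, with 1 gene of the interferon and NF-kB list not drawn, for LPS-treated SRF-KO against LPS-treated wild type (red circles) and LPS-treated wild type against untreated wild type (blue squares). In the 2 left panels most red points lie left of 0 and most blue points right of it. Nfkb1, H2-M2 and Procr are among the genes with both points right of 0.

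For Nlrc5, H2-K1 and B2m the genes with the most similar pattern over the 9 libraries were found. The measure was the root mean square distance between centred log2 CPM profiles, over 11108 genes with an ordinary symbol. For Nlrc5 the nearest were Parp12, Fam241a, Map3k8, Slfn8 and Lrrc25, at distances of 0.0770 to 0.116 log2 units. Parp12, the nearest, averaged 231 CPM in LPS-treated SRF-KO, 856 CPM in LPS-treated wild type and 180 CPM in untreated wild type. For H2-K1 the nearest were Acp2, Slc7a8, Dcxr, Tecpr2 and Inpp5k, at 0.0282 to 0.0640 log2 units, with Acp2, a lysosomal acid phosphatase, at 234, 664 and 345 CPM in the same groups. For B2m they were Nek6, Cd48, Clec12a, Ifi207 and Taok3, at 0.0676 to 0.0849 log2 units, with Cd48, an adhesion receptor of immune cells, at 70.6, 216 and 137 CPM. The lists for Nlrc5, H2-K1 and B2m shared no gene.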

How the data were processed

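Gene expression was measured by RNA sequencing in 9 libraries, 3 per group, with groups and replicate numbers taken from the sample titles. Each deposited file lists raw whole-number read counts by Ensembl identifier, without normalization, per the file headers. Per the submitters' processing notes, reads were handled with bcl2fastq 2.19, Trimmomatic, STAR 2.5.4b, featureCounts and edgeR on GRCm38, and libraries were stranded TruSeq, per the labels' protocols. The sources used here give no options, annotation release or strand setting.

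Symbols were found for all but 310 of 22524 identifiers. Coordinates and exon lengths came from GENCODE M21 (GRCm38). After filterByExpr kept 11560 genes, 1 edgeR 4.0.16 quasi-likelihood model (glmQLFit, glmQLFTest; R 4.3.3, limma 3.58.1) with TMM scaling covered the 9 libraries, with group as its only term. Adjusted p-values are Benjamini-Hochberg over all genes, threshold 0.05. Standard errors came from the unshrunken log2 fold change and the F statistic. Ratios used a pseudocount of 0.5 counts. The steps were tested on simulated counts. Replicates of a group differed by more than sampling noise (chi-square per degree of freedom 1.75 to 3.95, genes with at least 20 counts per pair).

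The genes, lists and markers were chosen with earlier results of these data known. Named genes were the 10 members, Srf, the 3 genes with the smallest p of each list in LPS-treated SRF-KO against LPS-treated wild type, and the 5 nearest patterns of Nlrc5, H2-K1 and B2m. Genes named outside that rule are Fcgr1, other cell markers, the Y-linked genes and those marked so in the text. The values of 1 gene that the rule names are not reported here. Alternatives were library totals, DESeq2 1.42.0, no filter, fits of 2 groups only, a replicate block, leaving out each library, and summed copies.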

Additional observations from a re-analysis of the deposited data

How the results depend on the processing

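The calls of the 10 genes were the same under nearly all alternatives run. Leaving out each of the 9 libraries in turn changed the direction or call of none of 270 values. Among 165 values from the other alternatives 163 kept both, and the exceptions, both with library totals, were B2m with LPS in wild type (0.07, adjusted p = 0.107) and H2-Q4 in LPS-treated SRF-KO against untreated wild type (-0.26, adjusted p = 2.94e-07). For these 2 genes the alternatives otherwise kept the call. Library totals also moved the counts over all genes, to 7059 higher and 2434 lower in LPS-treated SRF-KO against LPS-treated wild type (with TMM 4521 and 4384), and to 2428 higher and 7835 lower with LPS in wild type (with TMM 4722 and 4721). A replicate block, with the title's number as a term, gave 10 genes lower in LPS-treated SRF-KO against LPS-treated wild type, and 4530 higher and 4389 lower over all genes. The correlations did not settle whether the numbers pair the libraries. Same-numbered libraries of different groups correlated at -0.0746 to 0.0971 in their deviations from the group means, under 0.1 in 9 of 9 pairs. Differently numbered libraries correlated at -0.110 to 0.111 (18 pairs). Between the LPS-treated groups alone, same-numbered pairs were at 0.0654, 0.0971 and 0.0180, and differently numbered pairs at -0.0725 to 0.00672. Depth did not limit the 10 genes, whose lowest count in a library was 481, but shared reads among close copies limit the H2-Q and H2-T values.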

Other observations

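Class I-like genes outside the H2 complex, whose proteins resemble class I heavy chains, had calls in both directions. Of 5 tested, 2 were higher and 3 lower in LPS-treated SRF-KO than in LPS-treated wild type, and 1 was higher, 3 lower and 1 not passing with LPS in wild type. Of all genes tested, 39.1% were higher and 37.9% lower in the genotype comparison, and 40.8% higher and 40.8% lower with LPS. With library totals 2 of the 5 were higher and 2 lower in the genotype comparison, and 1 higher and 4 lower with LPS. In LPS-treated SRF-KO against untreated wild type 2 were higher and 3 lower. Procr, the endothelial protein C receptor, had 339.9 ± 8.63 CPM in LPS-treated SRF-KO, 132 ± 4.19 CPM in LPS-treated wild type and 5.40 ± 0.538 CPM in untreated wild type (SD, n = 3 each). Hfe, a regulator of iron uptake that pairs with beta-2-microglobulin, had 16.4 ± 0.996 CPM in LPS-treated SRF-KO, 27.5 ± 0.913 CPM in LPS-treated wild type and 58.7 ± 3.89 CPM in untreated wild type (SD, n = 3 each). Cd1d1, which presents lipids to natural killer T cells, had 6.02 ± 0.559 CPM in LPS-treated SRF-KO, 2.40 ± 0.474 CPM in LPS-treated wild type and 2.49 ± 0.251 CPM in untreated wild type (SD, n = 3 each). Its log2 fold change between the LPS-treated groups was 1.32 (edgeR, SE 0.164, adjusted p = 3.64e-09), and with LPS in wild type it was at -0.03 and did not pass the test (adjusted p = 0.880), or at -0.58 with library totals (adjusted p = 0.00621).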
